A study of Arabidopsis thaliana with 6 samples.

Results

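The WRKY family is a group of plant transcription factors. Its members were taken by locus identifier from a list of 50 Arabidopsis thaliana WRKY genes, all of which were among the 24487 genes with deposited values. Of these, 48 averaged 10 or more normalized counts across all libraries and were tested together with 20174 other genes. The list may not hold the whole family, and counts for the family and its groups refer to the 50 listed genes only. RNA had been sequenced from whole seedlings of 4 days, raised at 22 °C without light after at least 3 days of cold and dark at 4 °C. There were 3 libraries labelled atino80-6 and 3 labelled wild type, all from dark-grown seedlings, and no light-grown group was analysed here. The labels state neither the kind of allele in atino80-6 nor whether the replicates came from separate cultures. The p-values therefore cover the spread between these samples and no more, and that spread may be technical.

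INO80, the catalytic subunit of the remodelling complex for which the line is named, was higher and not lower in the libraries labelled atino80-6. It held 28174, 33013 and 33322 normalized counts there, against 5586, 6173 and 5758 in wild type, so every direction given here rests on the labels as deposited. Each library held between 18446028 and 24156610 reads assigned to genes. Organelle genes took 0.192% of the reads of atino80-6 3, against 0.0627% to 0.0967% in the other libraries. The summed counts of 13 touch and wound responsive genes, given with the other marker lists, were highest in wild type 1, as were 8 of these genes singly. In RNA from whole seedlings, fewer cells of a type and less RNA per cell cannot be told apart.

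WRKY proteins bind DNA through a domain that opens with a short conserved peptide, from which the family takes its name, and closes with a zinc finger. Their usual target is the W-box, a short element with the core TTGAC that is common in promoters of defence genes, among them those of many WRKY genes. Group I members carry a pair of WRKY domains, group II members carry a single one and are divided into IIa to IIe, and group III members carry a zinc finger of another type. In Arabidopsis several members act downstream of receptors for microbial patterns and of MAP kinase cascades, while others act in senescence, phosphate supply, trichome and seed coat formation or germination.

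The coding stretches of the conserved peptide are shown because they define the family and set group I apart. In RefSeq coding sequences (TAIR10.1), 9 members held a pair of such stretches and the other 41 held 1. The 9 were exactly the listed members of group I. The codon for the sixth residue of the peptide is in capitals. It read CAA or CAG, for glutamine, in the first 4 stretches below, and AAG, for lysine, in those of WRKY50 and WRKY51.
WRKY33, first copy: tggagaaagtacggaCAAaaa
WRKY33, second copy: tggagaaaatacggcCAGaaa
WRKY40: tggaggaaatatggaCAGaaa
WRKY53: tggagaaaatatggtCAAaaa
WRKY50: tggagaaagtatgggAAGaag
WRKY51: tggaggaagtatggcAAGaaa

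The 250 bases upstream of the annotated gene start are shown for 4 members that fell, for WRKY38, which rose, and for WRKY70, which did not pass the test, since W-boxes in them can then be set beside the values. Sequences are from the RefSeq genome TAIR10.1, 5′ to 3′ on the gene's strand. Capitals mark TTGACC or TTGACT on either strand, so that GGTCAA and AGTCAA are the same motifs read on the other strand.
WRKY30, chr5:8154711-8154960, minus strand: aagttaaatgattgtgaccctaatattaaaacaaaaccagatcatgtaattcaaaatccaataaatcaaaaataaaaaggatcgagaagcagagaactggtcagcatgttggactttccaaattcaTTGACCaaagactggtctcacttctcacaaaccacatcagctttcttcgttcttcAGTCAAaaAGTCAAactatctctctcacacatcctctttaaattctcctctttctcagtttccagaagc
WRKY33, chr2:16107985-16108234, plus strand: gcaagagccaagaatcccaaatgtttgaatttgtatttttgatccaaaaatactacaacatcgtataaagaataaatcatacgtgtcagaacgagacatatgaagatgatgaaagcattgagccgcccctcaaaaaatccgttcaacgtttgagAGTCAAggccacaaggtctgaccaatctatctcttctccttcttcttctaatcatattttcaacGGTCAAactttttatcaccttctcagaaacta
WRKY53, chr4:12393983-12394232, minus strand: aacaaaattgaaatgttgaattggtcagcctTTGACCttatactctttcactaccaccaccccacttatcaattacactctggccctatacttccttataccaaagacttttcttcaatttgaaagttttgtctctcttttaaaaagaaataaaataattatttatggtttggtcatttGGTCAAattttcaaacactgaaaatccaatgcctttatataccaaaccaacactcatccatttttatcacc
WRKY55, chr2:16996828-16997077, plus strand: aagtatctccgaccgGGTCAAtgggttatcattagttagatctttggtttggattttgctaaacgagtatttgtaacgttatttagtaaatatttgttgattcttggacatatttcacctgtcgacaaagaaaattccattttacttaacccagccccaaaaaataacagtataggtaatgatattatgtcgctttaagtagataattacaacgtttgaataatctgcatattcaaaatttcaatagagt
WRKY38, chr5:7496991-7497240, minus strand: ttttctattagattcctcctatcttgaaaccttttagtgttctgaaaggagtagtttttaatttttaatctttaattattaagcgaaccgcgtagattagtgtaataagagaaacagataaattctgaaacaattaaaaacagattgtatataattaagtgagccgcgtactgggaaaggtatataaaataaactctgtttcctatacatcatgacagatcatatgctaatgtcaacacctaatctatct
WRKY70, chr3:20910624-20910873, minus strand: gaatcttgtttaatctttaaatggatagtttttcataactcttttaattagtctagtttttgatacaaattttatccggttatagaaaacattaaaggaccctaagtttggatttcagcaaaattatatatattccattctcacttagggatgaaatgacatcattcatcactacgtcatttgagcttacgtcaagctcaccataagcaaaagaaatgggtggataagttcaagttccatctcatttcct

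The window of WRKY30 held 3 such motifs, those of WRKY33 and WRKY53 held 2 each, that of WRKY55 held 1, and those of WRKY38 and WRKY70 held 0. The core TTGAC followed by another base was not counted. It stands on the other strand in the windows of WRKY38 and WRKY70. Over the family, 14 of the 27 members that fell (51.9%) had at least 1 motif in this window, as had 0 of the 3 that rose and 2 of the 18 that did not pass (11.1%). The share was 28.5% over all tested genes with a window and 37.7% over all tested genes that fell. Of the windows not shown, that of WRKY40, which fell, held 0, while those of WRKY20 and WRKY28, which did not pass, held 1 each. Among tested members, at least 2 motifs stood before 8, WRKY15, WRKY17, WRKY29, WRKY30, WRKY33, WRKY41, WRKY45 and WRKY53, all of which fell (29.6% of the 27). The same held for 6.13% of all tested genes and 10.7% of all tested genes that fell, and for WRKY62, which was not tested. The contrast depended on the length of the window. In 1000 bases the motif stood before 24 of 27 members that fell (88.9%) and 15 of 18 that did not pass (83.3%), against 67.4% of all tested genes. These shares and averages describe letters in a window, were chosen after the values were seen and were not tested.

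Per length, the family ranged widely in both genotypes. In the libraries labelled atino80-6, 8 members averaged above 20 FPKM and 9 below 1 FPKM, and in wild type these counts were 15 and 9. WRKY15, a calmodulin-binding member linked to osmotic and oxidative stress, had the highest level in both, with 56.5 ± 2.20 FPKM in the libraries labelled atino80-6 and 91.0 ± 24.0 FPKM in wild type (SD, n = 3 each). WRKY33 stood at rank 14 in the libraries labelled atino80-6 with 16.4 ± 1.80 FPKM and at rank 3 in wild type with 55.4 ± 10.7 FPKM (SD, n = 3 each). WRKY39 held rank 2 in the libraries labelled atino80-6 with 42.0 ± 6.09 FPKM and followed WRKY33 in wild type with 55.0 ± 2.43 FPKM, where the pair did not differ beyond their spread. WRKY38 stood at rank 29 in the libraries labelled atino80-6 (2.76 ± 1.10 FPKM) and at rank 47 in wild type (0.328 ± 0.148 FPKM). WRKY53 stood at rank 41 in the libraries labelled atino80-6 and at rank 28 in wild type, with 1.02 ± 0.330 and 5.94 ± 2.71 FPKM. The summed level of all 50 members was 513.4, 509.7 and 577.6 FPKM in the libraries labelled atino80-6, against 899.8, 773.5 and 782.8 FPKM in wild type, with no overlap.

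**Figure D1:**
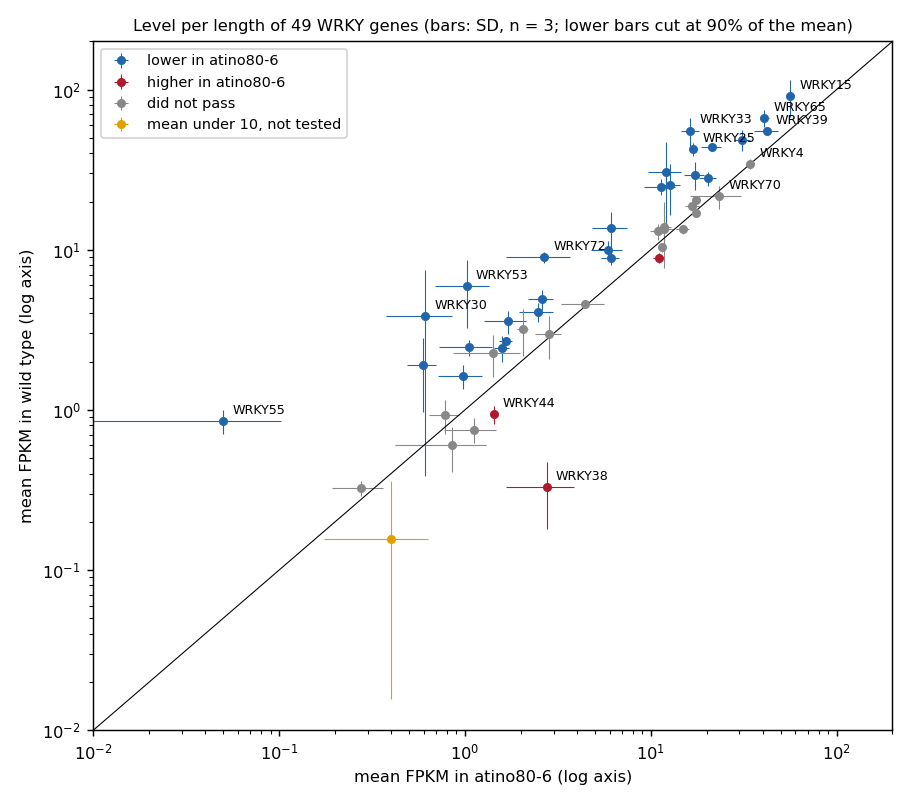
Mean FPKM of 49 WRKY genes in the libraries labelled atino80-6 (horizontal, log axis) and in wild type (vertical, log axis), with SD bars over 3 libraries, lower bars cut at 90% of the mean and the line of equal levels. WRKY12 is left out because it is listed at 0 in every wild type library. Most points lie above the line, WRKY33 stands well above it, and WRKY38 stands below it.

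The comparison of the genotypes asks which members differ between atino80-6 and wild type seedlings in the dark. Of the 48 tested members, 27 fell, 3 rose and 18 did not pass the test (limma on log2(normalized count + 1), Benjamini-Hochberg adjustment over all 20222 tested genes, threshold 0.05). Over all tested genes 16.6% fell and 17.7% rose, so the 27 members (56.2%) lie above the first share and the 3 that rose (6.25%) below the second. In either direction 30 members passed (62.5%), against 34.2% of all tested genes. The median log2 change of the members was -0.62, against 0.00039 over all tested genes. In 29 members every library labelled atino80-6 was below every wild type library, as in 24.2% of all tested genes, and these 29 included all 27 that fell. In 4 members the order was the reverse, against 24.1% of all tested genes. A fall of at least 2-fold on the log2 scale was found for 13 members, against 5.31% of all tested genes. In the authors' deposited table the same 27 members were lower and 2 of the 3 were higher, with 16.5% and 17.4% of the same tested genes lower and higher. The exception was WRKY44, with an adjusted p of 0.094 in the authors' deposited table.

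**Figure D2:**
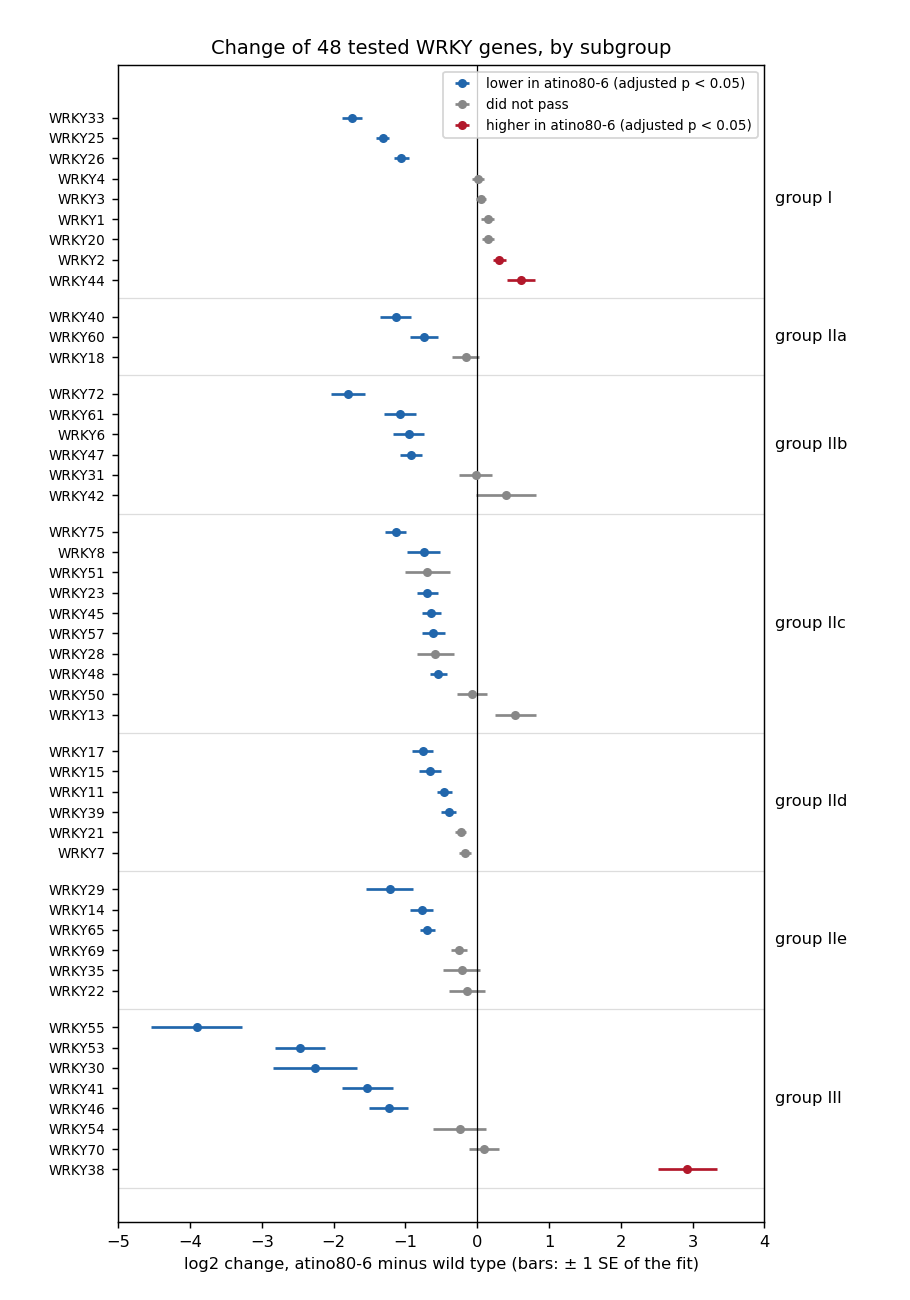
Log2 change of the 48 tested WRKY genes (atino80-6 minus wild type, horizontal) with bars of 1 standard error of the fit (3 libraries per group), arranged by subgroup and colored by the limma call. Members to the left of 0 are lower in the libraries labelled atino80-6, and each subgroup holds at least 2 that fell. The members that rose are WRKY38 of group III and WRKY2 and WRKY44 of group I.

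Group I held members that fell, rose and did not pass. Of its 9 members, 3 fell, 2 rose and 4 did not pass, with a median log2 change of 0.05. The 3 that fell were WRKY33, WRKY25 and WRKY26, close relatives that together support heat tolerance. WRKY33 (AT2G38470), a substrate of the MAP kinases MPK3 and MPK6 that is needed for camalexin synthesis and for resistance to necrotrophic fungi, held 778, 786 and 941 normalized counts in libraries labelled atino80-6, against 3459, 2510.1 and 2510.2 in wild type. The lowest wild type library stood well above the highest library labelled atino80-6. WRKY33 fell 3.39-fold, with a log2 change of -1.75 ± 0.14 (limma adjusted p = 3.7e-05). WRKY25 (AT2G30250) held 714, 678 and 726 normalized counts in libraries labelled atino80-6, against 1591, 1917 and 1796 in wild type, a fall of 2.504-fold (log2 change -1.32 ± 0.09, limma adjusted p = 1.6e-05). The 3 libraries of each group lay close together, and this was the smallest adjusted p among the members. WRKY26 fell 2.07-fold, to 705 ± 89.0 normalized counts in libraries labelled atino80-6, against 1460.1 ± 28.4 in wild type (SD, n = 3 each; log2 change -1.06 ± 0.10, limma adjusted p = 0.00011).

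Of the other members of group I, those called were higher. WRKY44 (AT2G37260), also called TTG2, acts in trichome and seed coat development. It held 68.9, 66.7 and 67.1 normalized counts in libraries labelled atino80-6, against 47.2, 47.8 and 37.6 in wild type. The groups did not overlap, and WRKY44 rose 1.53-fold (log2 change 0.61 ± 0.20, limma adjusted p = 0.041), a call that was lost in 11 of 17 alternative settings, among them the omission of any library other than wild type 1. WRKY2 (AT5G56270), an activator of WOX8 in the zygote, rose 1.24-fold, with 773, 853 and 887 normalized counts in libraries labelled atino80-6, against 695, 715 and 620.1 in wild type (log2 change 0.31 ± 0.09, limma adjusted p = 0.03). Its call was lost in 7 alternative settings, among them the omission of atino80-6 2, atino80-6 3, wild type 2 or wild type 3. WRKY3 and WRKY4, which act in resistance to necrotrophs, had log2 changes of 0.05 and 0.01, and WRKY1 and WRKY20 both had 0.15. None of these 4 passed the test, although for WRKY20 every library labelled atino80-6 was above every wild type library. WRKY4 averaged 2107 ± 109 normalized counts in libraries labelled atino80-6 and 2099 ± 156 in wild type (SD, n = 3 each).

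Group IIa holds WRKY18, WRKY40 and WRKY60, related factors that form complexes with each other and act in defence and abscisic acid responses. WRKY40 (AT1G80840) held 179, 248 and 277 normalized counts in libraries labelled atino80-6, against 684, 413 and 466 in wild type. All wild type libraries were higher, wild type 1 most of all, and WRKY40 fell 2.22-fold (log2 change -1.14 ± 0.22, limma adjusted p = 0.004). WRKY60 fell 1.66-fold (log2 change -0.74 ± 0.20, limma adjusted p = 0.02), with 67.8, 103 and 92.2 normalized counts in libraries labelled atino80-6, against 153, 123 and 160.1 in wild type. Its call was lost without atino80-6 1, wild type 1 or wild type 3 (limma adjusted p between 0.05 and 0.079). WRKY18 held 402, 470.1 and 503 normalized counts in libraries labelled atino80-6, against 696, 422 and 452 in wild type. These groups overlapped, and its log2 change of -0.16 ± 0.18 did not pass (limma adjusted p = 0.54).

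In group IIb 4 of 6 members fell and the other 2 did not pass, with a median log2 change of -0.94. WRKY72 (AT5G15130), which contributes to basal immunity, held 105, 142 and 219.6 normalized counts in libraries labelled atino80-6, against 482, 525 and 559.8 in wild type. Wild type libraries stood more than 2-fold above every library labelled atino80-6, and WRKY72 fell 3.35-fold (log2 change -1.80 ± 0.23, limma adjusted p = 0.00054). WRKY61 (AT1G18860), a close relative of WRKY72, fell 2.10-fold, to 62.8 ± 15.98 normalized counts in libraries labelled atino80-6, against 132 ± 21.7 in wild type (SD, n = 3 each; limma adjusted p = 0.0066). WRKY6, which acts in senescence and represses the phosphate exporter gene PHO1, held 764, 593 and 734 normalized counts in libraries labelled atino80-6, against 1955, 1062 and 1174 in wild type. It fell 2.00-fold (log2 change -0.96 ± 0.21, limma adjusted p = 0.0084), and its log2 change was -0.69 without wild type 1. WRKY47 fell 1.89-fold (limma adjusted p = 0.002). WRKY31, and WRKY42, which also represses PHO1, had log2 changes of -0.02 ± 0.23 and 0.40 ± 0.42.

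Group IIc had 11 members, of which 10 were tested, 6 fell and 0 rose, with a median log2 change of -0.62. WRKY75 (AT5G13080), a regulator of phosphate starvation responses and senescence, held 354, 269 and 393 normalized counts in libraries labelled atino80-6, against 815, 650.2 and 752 in wild type. There was no overlap and WRKY75 fell 2.18-fold (log2 change -1.14 ± 0.15, limma adjusted p = 0.00061). WRKY45, which activates the phosphate transporter gene PHT1;1, fell 1.56-fold, to 671 ± 66.6 normalized counts in libraries labelled atino80-6, against 1049.6 ± 161 in wild type (SD, n = 3 each; limma adjusted p = 0.0052). WRKY23, an auxin-responsive factor of root development, fell 1.62-fold, WRKY57, which acts in drought tolerance, fell 1.54-fold and WRKY48, a repressor of basal defence, fell 1.45-fold. WRKY8, which acts in salt tolerance, fell 1.67-fold (log2 change -0.75 ± 0.23, limma adjusted p = 0.036). The call of WRKY8 was lost without atino80-6 1, atino80-6 2, wild type 2 or wild type 3, and that of WRKY57 without atino80-6 2, wild type 2 or wild type 3. WRKY28, an activator of the salicylic acid synthesis gene ICS1, had a log2 change of -0.59 ± 0.26 and did not pass.

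WRKY50 and WRKY51, the members with the lysine codon shown above, mediate repression of jasmonate responses. Their log2 changes were -0.08 ± 0.21 and -0.70 ± 0.32, and neither passed. WRKY51 held 35.0, 29.9 and 60.3 normalized counts in libraries labelled atino80-6, against 53.4, 89.8 and 57.7 in wild type, so that its groups overlapped through atino80-6 3. WRKY13, a regulator of stem development, had a log2 change of 0.53 ± 0.28 without passing. WRKY12, its counterpart in stem and flowering control, was not tested, with 0, 1 and 1 reads in the libraries labelled atino80-6, against 0 in each wild type library.

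In group IId, whose members bind calmodulin, 4 of 6 fell, each by less than 2-fold. WRKY15 held 1755, 1772 and 1648 normalized counts in libraries labelled atino80-6, against 3626, 2371 and 2346 in wild type. It fell 1.61-fold (log2 change -0.66 ± 0.16, limma adjusted p = 0.012). WRKY11 and WRKY17, related negative regulators of basal resistance, fell 1.38-fold and 1.70-fold (limma adjusted p = 0.01 and 0.0045). WRKY39, which acts in heat tolerance, fell 1.31-fold, the smallest ratio among the members that fell, and lost its call without atino80-6 1, atino80-6 2, wild type 2 or wild type 3. WRKY21 and WRKY7 did not pass, with log2 changes of -0.23 ± 0.08 and -0.17, although their groups did not overlap.

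In group IIe 3 of 6 members fell. WRKY22 and WRKY29, which act downstream of the flagellin receptor FLS2 and its MAP kinase cascade, were not called alike. WRKY29 (AT4G23550) held 379.7, 253 and 348 normalized counts in libraries labelled atino80-6, against 1350.0, 530.1 and 596 in wild type. It fell 2.52-fold (log2 change -1.22 ± 0.32, limma adjusted p = 0.019), with a log2 change of -0.80 without wild type 1. The call was lost without atino80-6 2 (limma adjusted p = 0.075) and with robust empirical Bayes. WRKY22 held 364, 418 and 434 normalized counts in libraries labelled atino80-6, against 717, 359 and 345 in wild type. Wild type 1 was again highest, while the other wild type libraries lay below every library labelled atino80-6, and WRKY22 did not pass (log2 change -0.14 ± 0.25). Whether the changes of WRKY29 and WRKY22 differ was not tested. WRKY65 fell 1.62-fold (limma adjusted p = 0.001) and WRKY14 fell 1.70-fold (limma adjusted p = 0.0057), while WRKY69 and WRKY35 had log2 changes of -0.25 ± 0.11 and -0.22 and did not pass.

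Group III held both the largest fall and the largest rise of the tested members. Of its 9 members 8 were tested, 5 fell, 1 rose and 2 did not pass, with a median log2 change of -1.38. WRKY53 (AT4G23810), a positive regulator of leaf senescence, held 22.2, 43.8 and 38.7 normalized counts in libraries labelled atino80-6, against 309, 165 and 136 in wild type. The lowest wild type library was about 3-fold above the highest library labelled atino80-6, and WRKY53 fell 5.82-fold (log2 change -2.47 ± 0.35, limma adjusted p = 0.00089). WRKY55 (AT2G40740), a regulator of senescence and salicylic acid responses, gave 4, 2 and 0 reads in the libraries labelled atino80-6, against 38, 36 and 52 reads in wild type. It fell 17.1-fold in normalized counts, a ratio that rests on 6 reads in all libraries labelled atino80-6 (log2 change -3.91 ± 0.63, limma adjusted p = 0.0018). Without atino80-6 1 the ratio for WRKY55 was 38.1 on 2 reads (exact 95% counting interval 9.71 to 299).

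WRKY30, a stress-responsive member, held 18.7, 13.9 and 29.6 normalized counts in libraries labelled atino80-6, against 269, 46.9 and 75.2 in wild type. Wild type 1 was more than 3-fold above the other wild type libraries. WRKY30 (AT5G24110) fell 6.29-fold (log2 change -2.26 ± 0.58, limma adjusted p = 0.017), and without wild type 1 the ratio was 2.94 and the log2 change -1.54. The call was lost without atino80-6 2, with voom and with FPKM as deposited. WRKY41 (AT4G11070), a positive regulator of seed dormancy through ABI3, fell 3.18-fold, with 21.03, 14.9 and 20.5 normalized counts in libraries labelled atino80-6, against 92.7, 37.1 and 49.9 in wild type (log2 change -1.53 ± 0.36, limma adjusted p = 0.011). WRKY46 (AT2G46400), which acts in defence and brassinosteroid-linked drought responses, fell 2.32-fold, with 21.03, 32.9 and 41.0 normalized counts in libraries labelled atino80-6, against 70.0, 67.4 and 83.1 in wild type (log2 change -1.23 ± 0.27, limma adjusted p = 0.0085).

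WRKY38, which is induced by salicylic acid and acts with WRKY62 as a negative regulator of basal defence, moved the other way. It held 44.4, 71.7 and 102 normalized counts in libraries labelled atino80-6, against 6.999, 5.86 and 13.1 in wild type. Every library labelled atino80-6 was more than 3-fold above the highest wild type library. WRKY38 (AT5G22570) rose 8.41-fold (log2 change 2.93 ± 0.41, limma adjusted p = 0.0008) and kept its call in every alternative setting in which it was tested. WRKY62 gave 3, 10 and 12 reads in the libraries labelled atino80-6, against 2, 0 and 10 reads in wild type, and was not tested. WRKY70 (AT3G56400), which links salicylic acid and jasmonate signalling, held 568, 720.2 and 1025 normalized counts in libraries labelled atino80-6, against 583, 813 and 733 in wild type. The groups overlapped throughout, and WRKY70 did not pass (log2 change 0.09 ± 0.21, limma adjusted p = 0.77). WRKY54, its partner in restraining senescence, held 9.35, 15.9 and 10.2 normalized counts in libraries labelled atino80-6, against 12.2, 14.6 and 14.9 in wild type, and did not pass (log2 change -0.25 ± 0.37).

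**Figure D3:**
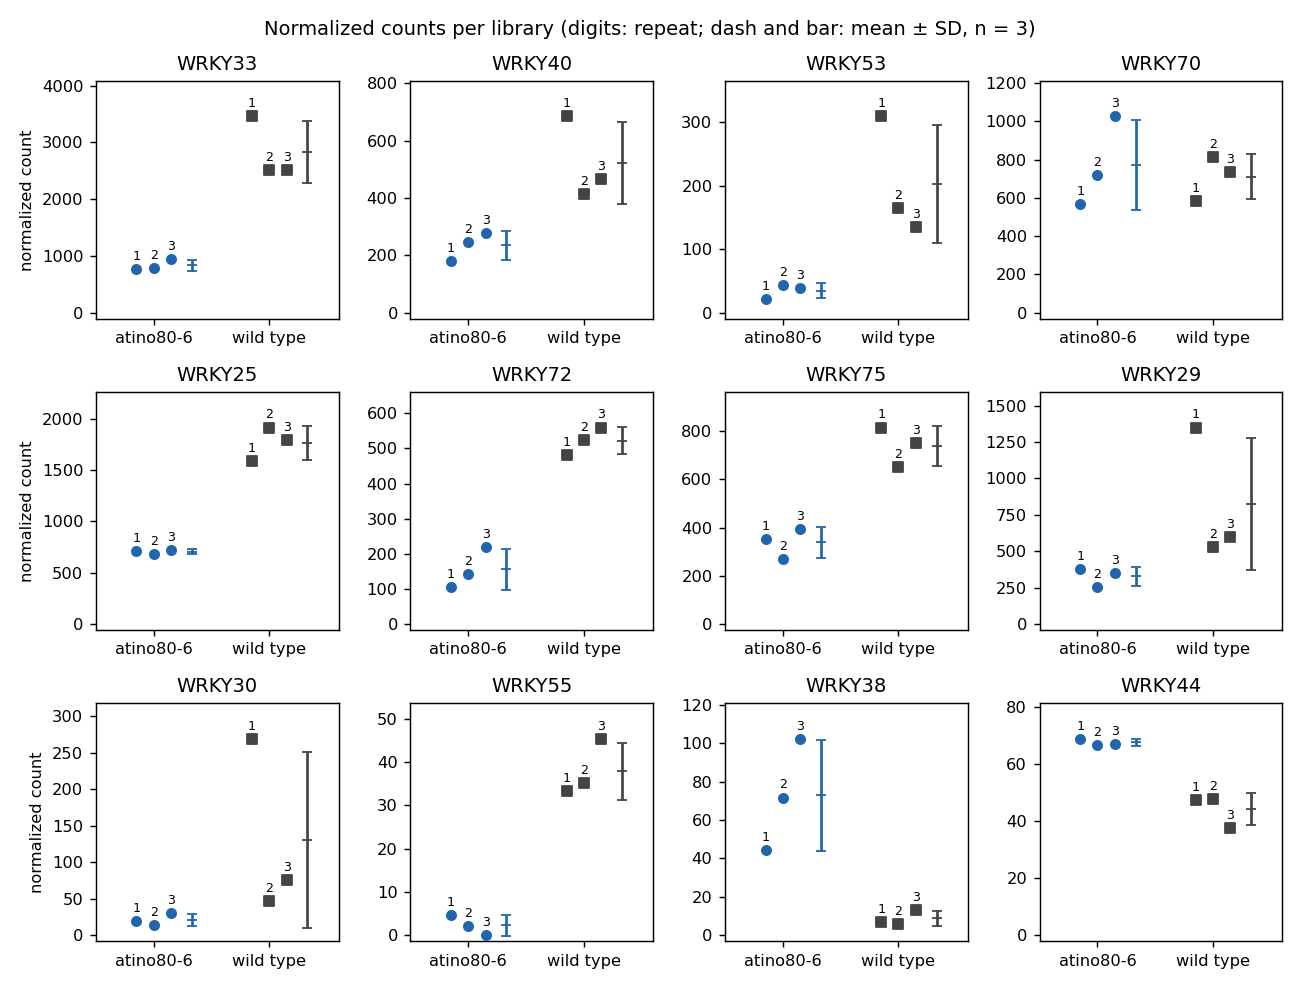
Normalized counts (vertical, linear axis from 0) of 12 WRKY genes in each library labelled atino80-6 (left, circles) and wild type (right, squares), numbered by repeat, with mean and SD bars over 3 libraries. WRKY33, WRKY25, WRKY72 and WRKY75 are separated by wide gaps, WRKY29 and WRKY30 are highest in wild type 1, WRKY70 overlaps, and WRKY38 and WRKY44 are higher in the libraries labelled atino80-6.

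In some members, such as WRKY29 and WRKY30, wild type 1 stood far above the other wild type libraries. Wild type 1 was the highest wild type library in 17 of the 48 tested members (35.4%), against 41.4% of all tested genes. Among the 27 members that fell it was highest in 12, a share slightly above that of all tested genes. Without wild type 1 and atino80-6 3 together, the libraries with the outlying touch and organelle values, 29 members fell and 1 rose, while the share of all tested genes that fell was 21.7% in that fit, against 16.6% with all libraries. Genes on the opposite strand overlap 10 members in the RefSeq annotation, and since the strandedness of the kit is not stated, reads of such pairs cannot be told apart by strand. GH9B15, opposite WRKY29, had a log2 change of 3.49 (limma adjusted p = 0.00089), against the direction of WRKY29. The partners of WRKY41 and WRKY53, the HMG-box genes 3xHMG-box1 and 3xHMG-box2, fell by 0.84 and 0.41 on the log2 scale, in the direction of their WRKY genes. Of the genes opposite WRKY33, AT2G38480 had a log2 change of 0.06 and did not pass (limma adjusted p = 0.77), and AT2G08965 had no values here.

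**Figure D4:**
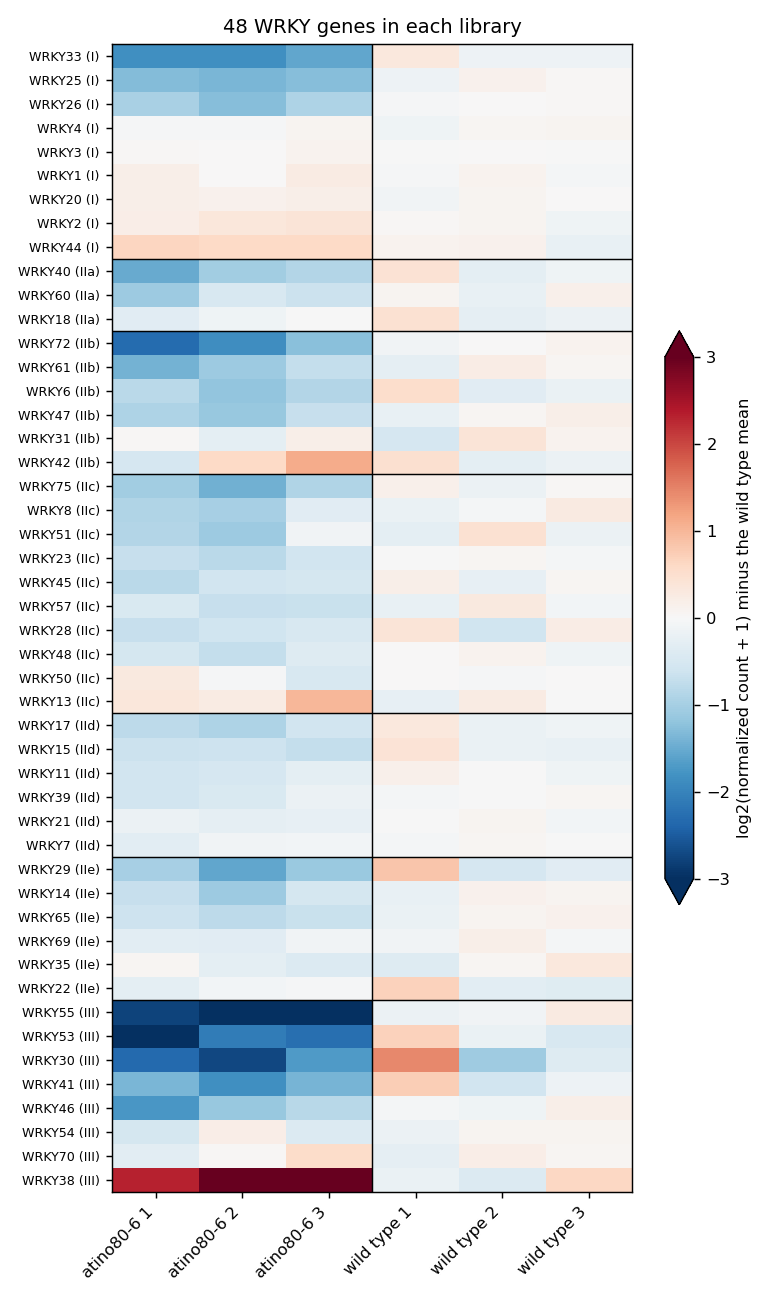
Log2(normalized count + 1) of the 48 tested WRKY genes in each library, as the difference from the gene's wild type mean (color scale, saturating beyond 3 in either direction), with the libraries labelled atino80-6 on the left, wild type on the right and subgroups in parentheses. Blue fields fill most of the left side, WRKY38 is red there in all 3 libraries, and wild type 1 carries the strongest red on the right for WRKY30.

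Genes of the signalling steps upstream of WRKY factors, and of the responses downstream, were counted against the same 16.6% of all tested genes that fell and 17.7% that rose. In the MAP kinase cascade list 7 of 14 genes fell and 0 rose, with a median log2 change of -0.28. MPK11, a kinase activated by microbial patterns, held 30.4, 21.9 and 17.1 normalized counts in libraries labelled atino80-6, against 116, 88.8 and 98.8 in wild type, and fell 4.38-fold (log2 change -2.11 ± 0.26, limma adjusted p = 0.0004). MKK1, a kinase of the MPK4 cascade, fell 2.09-fold and MAPKKK5, which links receptors to MPK3 and MPK6, fell 1.83-fold (limma adjusted p = 0.0011 and 9.3e-05). MPK3 itself fell 1.49-fold, to 1119 ± 114 normalized counts in libraries labelled atino80-6, against 1672 ± 169 in wild type (SD, n = 3 each; limma adjusted p = 0.0032), while MPK4 and MPK6 did not pass. Of 7 pattern receptors and early signalling genes 5 fell, with a median log2 change of -0.35, but 2 to 4 of them when any single library was left out. FLS2 fell 1.51-fold (limma adjusted p = 0.0074), LYK5, a chitin receptor, 1.46-fold (limma adjusted p = 0.033), its partner CERK1 1.27-fold (limma adjusted p = 0.014) and BAK1, a co-receptor, 1.36-fold (limma adjusted p = 0.0029). The call of LYK5 was lost without atino80-6 1, atino80-6 2, wild type 1 or wild type 2, and that of CERK1 without atino80-6 2 or wild type 2.

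VQ proteins bind WRKY domains and tune their activity. Of 16 tested VQ genes 8 fell and 0 rose, with a median log2 change of -0.58. VQ10 averaged 9.58 ± 1.90 normalized counts in libraries labelled atino80-6 and 38.8 ± 12.2 in wild type, a fall of 4.05-fold (SD, n = 3 each; limma adjusted p = 0.0035). VQ12, a negative regulator of defence, fell 3.71-fold, VQ32 fell 2.32-fold and VQ8 fell 2.17-fold (limma adjusted p = 0.011, 5e-05 and 0.012). Without wild type 1, VQ12 fell 2.33-fold. All 7 genes of the pattern-responsive list fell, with a median log2 change of -1.95. ATL2, a ubiquitin ligase gene of that list, passed narrowly (limma adjusted p = 0.0492) and lost its call in 10 of the alternatives, among them the omission of any library other than atino80-6 3. CYP81F2, an enzyme of indole glucosinolate modification, held 208, 343 and 446 normalized counts in libraries labelled atino80-6, against 1738, 1549 and 1831 in wild type (log2 change -2.42, limma adjusted p = 0.00012). PROPEP3 and PROPEP2, precursors of danger peptides, fell 7.47-fold and 4.46-fold (limma adjusted p = 0.00064 and 0.0014), and FRK1, a receptor kinase used as a marker of pattern responses, fell 3.71-fold (limma adjusted p = 0.0012).

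Of 6 tested genes of camalexin synthesis and other WRKY33 targets 4 fell, with a median log2 change of -1.67. CYP71A12 fell 9.38-fold, to 175 ± 71.8 normalized counts in libraries labelled atino80-6, against 1645 ± 569 in wild type (SD, n = 3 each; limma adjusted p = 0.00017), though it shares much of its sequence with CYP71A13 and the split of reads between them is uncertain. CYP79B2, which makes indole-3-acetaldoxime, fell 3.37-fold, and ACS2, an ethylene synthesis gene, fell 3.16-fold (limma adjusted p = 9.7e-05 and 0.00097). CYP82C2, an enzyme of indole defence metabolism, held 2.34, 0.996 and 21.6 normalized counts in libraries labelled atino80-6, against 99.7, 80.1 and 408 in wild type, a fall of 23.5-fold (limma adjusted p = 0.004). The size of the fall of CYP82C2 rested on single libraries, with 10.8-fold without wild type 3 and, on 3 reads, 118-fold without atino80-6 3 (exact 95% counting interval 42.2 to 603). PAD3, the last enzyme of camalexin synthesis, did not pass (log2 change -1.01, limma adjusted p = 0.0505), nor did ACS6 (log2 change 0.69, limma adjusted p = 0.13).

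In the salicylic acid list 6 of 10 tested genes fell and 1 rose, with a median log2 change of -0.89. The gene that rose was PR1, a late marker of salicylic acid responses, with 86.4, 171 and 274 normalized counts in libraries labelled atino80-6, against 10.5, 21.5 and 6.12 in wild type. It rose 14.0-fold (log2 change 3.71 ± 0.50, limma adjusted p = 0.0007), while CBP60G, an activator of salicylic acid synthesis, fell 3.02-fold and SAG101, a partner of EDS1, fell 2.54-fold (limma adjusted p = 0.0014 and 7.9e-05). Without wild type 2, PR1 rose 21.3-fold. PR2 and PR5, other genes of the list, had no values here. FMO1, an enzyme of systemic resistance, held 7.01, 26.9 and 48.9 normalized counts in libraries labelled atino80-6, against 46.4, 125 and 129 in wild type (log2 change -2.04, limma adjusted p = 0.04), and its groups overlapped. The ratio for FMO1 was 3.62, and 5.90 without atino80-6 3, and its call was lost without atino80-6 1, atino80-6 2, wild type 2 or wild type 3. Of 5 tested phosphate starvation genes 1 fell, SPX1, an inhibitor of phosphate responses, with 303, 329 and 300.4 normalized counts in libraries labelled atino80-6, against 4003, 548 and 809 in wild type (limma adjusted p = 0.035). Wild type 1 stood far above the others, SPX1 fell 5.75-fold with it and had a ratio of 2.18 without it, and the call was lost when any 1 of the libraries labelled atino80-6 was left out. PHO1, named above with WRKY6 and WRKY42, and PHT1;1, named with WRKY45, did not pass. Their log2 changes were -0.55 ± 0.21 and 0.09 ± 0.20 (limma adjusted p = 0.074 and 0.76). Of 4 tested epidermal and seed coat regulators, the genes that act with WRKY44, 0 fell and 0 rose, with a median log2 change of 0.48.

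Touch and wound responsive genes and organ markers were measured beside the family, again against 16.6% of all tested genes that fell and 17.7% that rose. Of 13 touch and wound responsive genes 6 fell and 1 rose, with a median log2 change of -0.61. Their summed normalized counts were 11081, 14289 and 14967 in the libraries labelled atino80-6, against 22019, 15580 and 15631 in wild type. ERF6, an ethylene response factor, held 139, 288 and 290.2 normalized counts in libraries labelled atino80-6, against 1755, 485 and 625 in wild type, a fall of 4.00-fold (limma adjusted p = 0.015) that was 2.32-fold without wild type 1. TCH4, a touch-induced cell wall enzyme, rose 2.45-fold (limma adjusted p = 6.9e-05), while CML37, a calmodulin-like protein, fell 3.26-fold and ERF5 fell 2.59-fold (limma adjusted p = 0.002 and 0.023). The call of ERF5 was lost without atino80-6 1 or atino80-6 2. With robust empirical Bayes 4 genes of the touch and wound list fell, and the call of ERF6 was among those lost. The part of these transcripts in the WRKY values was not tested. Of 6 root hair markers 1 fell (16.7%, near the share of all tested genes). This was the cell wall gene PRP3, which fell 2.502-fold (limma adjusted p = 0.035) although its groups overlapped. The median log2 change of these markers was -0.57, while RHD6 had 0.62 ± 0.28 without passing. Their sum was 594.6, 357.6 and 278.8 in the libraries labelled atino80-6, against 538.1, 446.2 and 1102.9 in wild type. The call of PRP3 was lost without atino80-6 2, atino80-6 3 or wild type 3. Of 4 endodermis markers 1 fell, SCR, by 1.26-fold (limma adjusted p = 0.0088), but all 4 fell without wild type 1. No marker of these 3 lists was at 0 in any library.

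**Figure D5:**
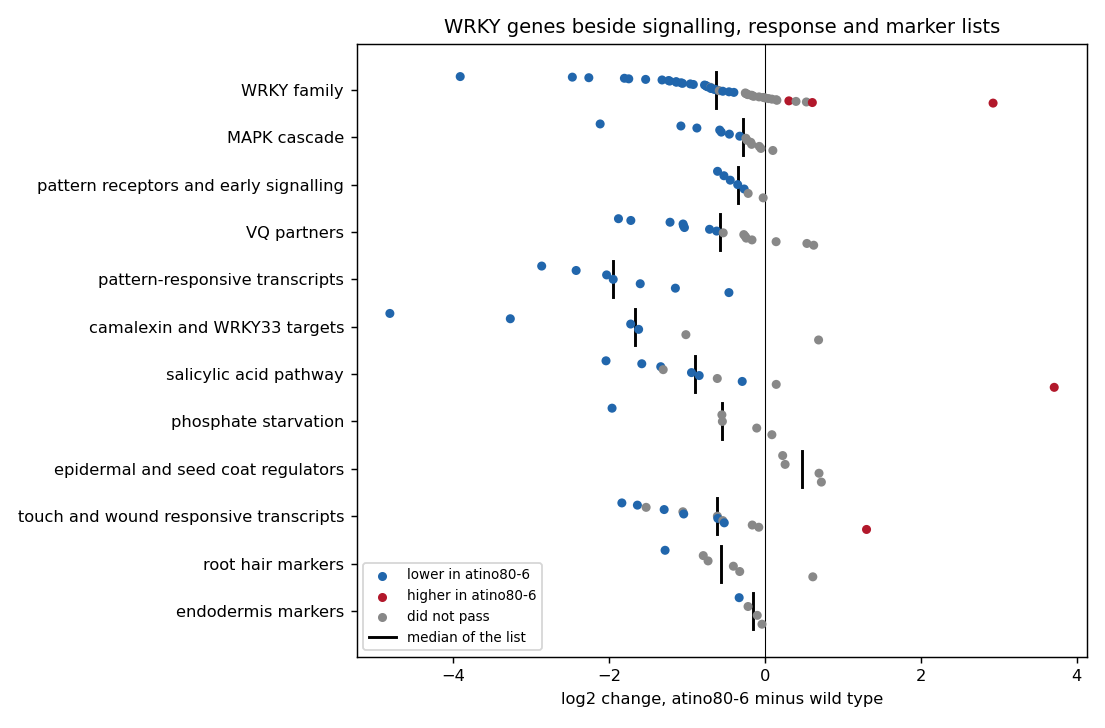
Log2 change (atino80-6 minus wild type, horizontal) of every tested gene of the WRKY family and of 11 lists of signalling, response and marker genes, colored by the limma call, with a bar at each list's median. The WRKY median lies at -0.62, the pattern-responsive list lies furthest to the left at -1.95, and PR1 is the point furthest to the right.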

How the data were processed

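RNA from 3 libraries labelled atino80-6 and 3 labelled wild type was sequenced after TRIzol extraction, DNase treatment and TruSeq RNA preparation, per the labels' protocols. The build TAIR10 and the tools HISAT2, featureCounts, DESeq2, SAMtools, cutadapt, FastQC and deepTools are named, without versions or order, per the submitters' processing notes. The authors deposited FPKM values for 24487 genes. The authors also deposited a comparison table that holds, per the file headers, for each gene a mean signal, a log2 fold change, the standard error of that change, a score (change over error), and raw and adjusted p-values.

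Normalized counts were recovered from the deposited FPKM by rescaling each gene so that its mean over the libraries equalled the deposited mean signal. Multiplied by size factors, 146922 of 146922 values were whole reads (tolerance 0.01). The library totals were 18446028 to 24156610 reads, so that 3 reads in a library equal 2.62 to 3.50 normalized counts. Genes with a mean of at least 10 (20222) were put on the log2 scale with a pseudocount of 1 and a linear model on genotype with empirical Bayes and trend was run in limma 3.58.1 (R 4.3.3), as a two-sided test at a threshold of 0.05 after Benjamini-Hochberg adjustment over these genes. The pseudocount understates changes of low genes. Exact (Clopper-Pearson) intervals on reads cover counting error only. Errors beside log2 changes are standard errors of this fit, and folds are ratios of group means of normalized counts. How reads shared by near-identical genes were counted is not given in the sources used here.

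Every member was accounted for. WRKY33, WRKY40, WRKY53 and WRKY70 were named whatever their result, as were up to 12 members past the threshold in each direction and up to 4 genes of each of 11 lists (104 genes), ranked by absolute log2 change. Further list genes in the text, and the motif counts, were picked once their values were known. The members, lists and tests were chosen with earlier results of these data known. Names, strands and sequences came from RefSeq (TAIR10.1), in which 24255 genes and all 50 members were matched by locus, and its coordinates are printed for the shown sequences only. Figures were drawn with matplotlib 3.10.9. Alternatives were pseudocounts of 0.5 and 5, quantile normalization, equal library totals, no filter, a minimum mean of 50, voom on the recovered reads, robust empirical Bayes, the FPKM as deposited, a replicate block, each library left out, and wild type 1 and atino80-6 3 left out together.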

Additional observations from a re-analysis of the deposited data

How the results depend on the processing

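Over the 17 alternatives between 22 and 29 members fell and between 1 and 3 rose, while the share of all tested genes that fell ranged between 11.45% (without atino80-6 2, 22 members) and 21.7% (without wild type 1 and atino80-6 3, 29 members). With single libraries left out the counts were 22 to 28 and 1 to 3. Exactly 1 member rose in some settings, but it was not the same member. With a mean of at least 50 it was WRKY2, since 41 members were tested there and WRKY38 was not among them. With equal library totals, with the replicate block and without wild type 1 and atino80-6 3 it was WRKY38. Of the 27 members that fell, 21 kept their call in every alternative in which they were tested. WRKY30 lost it with voom, with FPKM as deposited and without atino80-6 2, WRKY29 with robust empirical Bayes and without atino80-6 2, and WRKY8, WRKY39, WRKY57 and WRKY60 without single libraries. The cause was not tested.

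The same repeat numbers did not pair the libraries, with correlations of their deviations of 0.03, -0.19 and -0.10, and the replicate block left 27 members lower and 1 higher.

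Changes of sign were seen in members that had not passed. WRKY4 had a log2 change of -0.037 with equal library totals, -0.020 with quantile normalization and -0.099 without wild type 1 and atino80-6 3. Without that pair WRKY22 had 0.15, WRKY50 had 0.14 and WRKY70 had -0.27. With single libraries left out, the log2 change ranged between -0.057 and 0.042 for WRKY4, -0.30 and 0.063 for WRKY18, -0.33 and 0.20 for WRKY22, -0.27 and 0.17 for WRKY31, -0.26 and 0.13 for WRKY50, and -0.14 and 0.29 for WRKY70.

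Without wild type 1 and atino80-6 3, the genes that fell numbered 11 in the MAP kinase list, 3 among pattern receptors, 2 in the phosphate list, 0 among root hair markers and 4 among endodermis markers, and 1 rose among the epidermal regulators and among root hair markers. In the phosphate list 1 rose with no filter, 2 fell with equal library totals, and 0 fell with voom, robust empirical Bayes and FPKM as deposited. Among root hair markers 0 fell with robust empirical Bayes and FPKM as deposited. With single libraries left out, 2 to 4 pattern receptors, 0 to 2 phosphate genes, 0 to 2 root hair markers and 1 to 4 endodermis markers fell, and 0 to 1 gene rose in each of the VQ, camalexin, epidermal and root hair lists. The low reads of WRKY55, WRKY12 and WRKY62 limit their values.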
